A study of Homo sapiens with 12 samples.

Results

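The amino acid transporters described here are the genes of the solute carrier families SLC1A, SLC6A, SLC7A, SLC36A, SLC38A and SLC43A, taken by gene symbol, with SLC7A11 and the antisense and pseudogene symbols left out. There were 56 such genes among 27249 genes under Ensembl identifiers, with 7 in SLC1A, 19 in SLC6A, 12 in SLC7A, 4 in SLC36A, 11 in SLC38A and 3 in SLC43A. Their RNA was measured in 12 samples of Huh7 and HepG2, 2 established human liver cancer lines, both labelled hepatocellular carcinoma cells of wild-type genotype. In each line, 3 samples of sorafenib-resistant cells and 3 samples of parental cells, which the labels give as untreated and sensitive, were sequenced. Resistant cells had first been given sorafenib, a multikinase inhibitor, at 10 μmol as the labels write it, then left to regrow without drug, with rising doses over 8 months. Neither the labels nor the methods say whether a resistant line was 1 clone, or whether the drug was present at harvest. Nothing says that the 3 samples of a group came from separate cultures, so the p-values measure only the spread between these samples, which may be technical.

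Amino acid carriers set which amino acids a cell can take up, exchange or release. SLC1A4 and SLC1A5 are sodium-dependent exchangers of neutral amino acids, glutamine among the cargo of SLC1A5, whereas system A carriers such as SLC38A1, SLC38A2 and SLC38A4 use the sodium gradient to load the cell. The SLC7A light chains work only when paired with a heavy chain, SLC3A2 or SLC3A1, and swap one amino acid for another across the membrane. In liver, SLC38A3, SLC38A4 and SLC7A2 are known for the uptake of glutamine, alanine and arginine, and several carriers are targets of ATF4, the transcription factor of the amino acid response.

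RefSeq start-site windows, each running from 250 bases before to 50 bases after an annotated start on GRCh38.p14, were at hand for 43 of the 56 genes, in 63 windows. Both strands were searched for 2 sets of letters. TGATGNAA, the core of the C/EBP-ATF response element that ATF4 can bind, was present in 5 of the 63 windows (7.9%) and in 3.62% of all 35116 windows. CACGTG, the palindromic E-box read by MYC, USF and TFE factors, was present in 10 of the 63 (15.9%) and in 7.26% of all windows. These matches describe letters only, and no window of a member held both sets. The 5 members with TGATGNAA were SLC1A3, SLC1A4, SLC1A5, SLC7A1 and SLC38A1. The windows of the last 4, whose RNA could be compared in both lines, are printed 5′ to 3′ with the match in capitals. They lie at chr19:46784765-46785064 on the minus strand for SLC1A5, chr13:29595639-29595938 on the minus strand for SLC7A1, chr2:64989149-64989448 on the plus strand for SLC1A4 and chr12:46266467-46266766 on the minus strand for SLC38A1. The windows of SLC1A5, SLC1A4 and SLC38A1 lie wholly inside the annotated gene, at a start other than the outermost. Which start these cells use was not tested.
SLC1A5: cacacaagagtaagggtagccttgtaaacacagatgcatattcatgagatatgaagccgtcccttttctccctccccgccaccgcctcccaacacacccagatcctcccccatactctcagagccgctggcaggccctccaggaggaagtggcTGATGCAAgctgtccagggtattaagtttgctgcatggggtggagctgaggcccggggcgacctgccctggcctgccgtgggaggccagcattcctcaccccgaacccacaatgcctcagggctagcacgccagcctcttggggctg
SLC7A1: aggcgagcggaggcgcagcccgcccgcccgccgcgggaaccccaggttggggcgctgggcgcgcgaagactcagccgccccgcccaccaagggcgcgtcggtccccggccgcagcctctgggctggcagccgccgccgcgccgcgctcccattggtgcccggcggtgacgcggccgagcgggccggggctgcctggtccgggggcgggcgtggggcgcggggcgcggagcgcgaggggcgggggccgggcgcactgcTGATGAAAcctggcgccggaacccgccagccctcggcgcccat
SLC1A4: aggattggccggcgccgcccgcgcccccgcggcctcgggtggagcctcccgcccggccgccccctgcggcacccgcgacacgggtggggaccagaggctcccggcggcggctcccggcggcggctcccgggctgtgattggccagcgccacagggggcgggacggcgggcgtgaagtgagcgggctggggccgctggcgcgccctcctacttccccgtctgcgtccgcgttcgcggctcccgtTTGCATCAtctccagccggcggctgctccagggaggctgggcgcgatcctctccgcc
SLC38A1: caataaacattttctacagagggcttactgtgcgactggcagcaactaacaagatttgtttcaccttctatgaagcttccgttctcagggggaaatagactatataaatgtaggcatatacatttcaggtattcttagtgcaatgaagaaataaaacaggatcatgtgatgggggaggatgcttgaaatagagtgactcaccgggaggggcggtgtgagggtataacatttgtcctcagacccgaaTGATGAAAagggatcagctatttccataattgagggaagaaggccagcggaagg

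The E-box windows of 3 genes, chosen because they rose in resistant Huh7 cells, are printed in the same way, with CACGTG in capitals. They lie at chr14:23154344-23154643 for SLC7A8, chrX:48470211-48470510 for SLC38A5 and chr1:53142589-53142888 for SLC1A7, all on the minus strand. The SLC7A8 window lies wholly inside the annotated gene, and its use in these cells was not tested. The other 7 members with these letters in a window were SLC1A5, in a second window, SLC6A16, SLC7A5, SLC7A7, SLC36A1, SLC38A7 and SLC43A1. Of these, SLC1A5 was also called higher in resistant Huh7, where 8.59% of all genes tested were called higher. SLC7A5, SLC7A7, SLC36A1, SLC38A7 and SLC43A1 were not called there, and SLC6A16 was below the filter. Whether genes with these letters rose more often than others was not tested.
SLC7A8: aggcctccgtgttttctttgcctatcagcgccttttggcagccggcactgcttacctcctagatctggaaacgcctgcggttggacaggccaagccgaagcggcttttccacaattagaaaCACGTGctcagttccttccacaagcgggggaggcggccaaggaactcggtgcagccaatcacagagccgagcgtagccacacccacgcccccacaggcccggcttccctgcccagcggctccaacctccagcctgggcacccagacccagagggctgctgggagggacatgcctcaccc
SLC38A5: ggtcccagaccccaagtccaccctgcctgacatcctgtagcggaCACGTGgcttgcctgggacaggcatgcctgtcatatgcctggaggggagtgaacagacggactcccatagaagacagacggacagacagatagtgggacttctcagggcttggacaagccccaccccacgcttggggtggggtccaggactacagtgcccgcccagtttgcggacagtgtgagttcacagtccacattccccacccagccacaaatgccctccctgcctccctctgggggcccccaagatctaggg
SLC1A7: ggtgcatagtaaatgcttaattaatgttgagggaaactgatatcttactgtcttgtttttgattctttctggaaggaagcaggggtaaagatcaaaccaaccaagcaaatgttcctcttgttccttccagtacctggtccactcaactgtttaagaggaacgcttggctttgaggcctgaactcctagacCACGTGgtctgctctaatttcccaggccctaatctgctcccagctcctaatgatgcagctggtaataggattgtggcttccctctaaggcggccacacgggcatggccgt

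The depth recovered from the values was 12290105 to 19285896 reads per sample, lowest in parental HepG2 (12290105 to 15728821) and highest in resistant Huh7 (18972327 to 19285896). Hepatocyte markers were abundant in every group, with ALB means between 695.4 and 1615.1 FPKM (fragments per kilobase of exon, scaled to the depth of the library), whereas the 9 markers of blood, fibroblast and endothelial cells had group means of 0 to 3.13 FPKM. Their summed level was 2.69 to 3.59 FPKM in parental and 4.52 to 4.91 in resistant Huh7, and 4.22 to 5.07 in parental and 2.23 to 2.94 in resistant HepG2. In Huh7, 4 of the 9 were higher in every resistant than in every parental sample. These were COL1A2 (means of 0.133 and 0.977 FPKM), COL1A1 (0.14 and 0.611), VWF (0.0376 and 0.208) and PECAM1 (1.36 and 1.93), of which PECAM1 alone passed the filter (log2 change 0.31, adjusted p = 0.0208). In HepG2, PECAM1 was lower (-0.81, adjusted p = 0.0117) and the other 8 overlapped. CD68 was at 0 in parental Huh7, and DCN and CDH5 had at most 5 reads in each sample. The part of these genes in the transporter results was not tested.

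SLC38A2, the stress-inducible system A carrier, was the most abundant of the 56 in parental Huh7, parental HepG2 and resistant HepG2, by group mean. It made up 22.9% to 23.9% of the summed FPKM of the 56 genes in parental Huh7 samples and 33.8% to 45.0% in parental HepG2 samples. In resistant Huh7 the highest member was instead SLC43A1, a sodium-independent carrier of large neutral amino acids, at 12.7% to 15.9%. The 10 members with the highest mean over the 12 samples were SLC38A2, SLC7A5, SLC7A2, SLC43A1, SLC38A1, SLC7A10, SLC6A6, SLC1A5, SLC1A4 and SLC38A3. Summed over the 56 genes, the level was 548.8 ± 9.4 FPKM in parental and 552.3 ± 6.7 in resistant Huh7 (SD, n = 3; exact permutation test, two-sided p = 0.7). It was 1022.5 ± 32.2 in parental and 704.9 ± 22.5 in resistant HepG2 (SD, n = 3; exact permutation test, two-sided p = 0.1, and 3 against 3 samples cannot give a smaller one). Without SLC38A2 the sums were 419.7 ± 9.5 and 490.3 ± 12.5 in Huh7 (exact permutation p = 0.1) and 621.0 ± 47.6 and 513.7 ± 68.5 in HepG2 (exact permutation p = 0.2), each SD over n = 3.

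**Figure D1:**
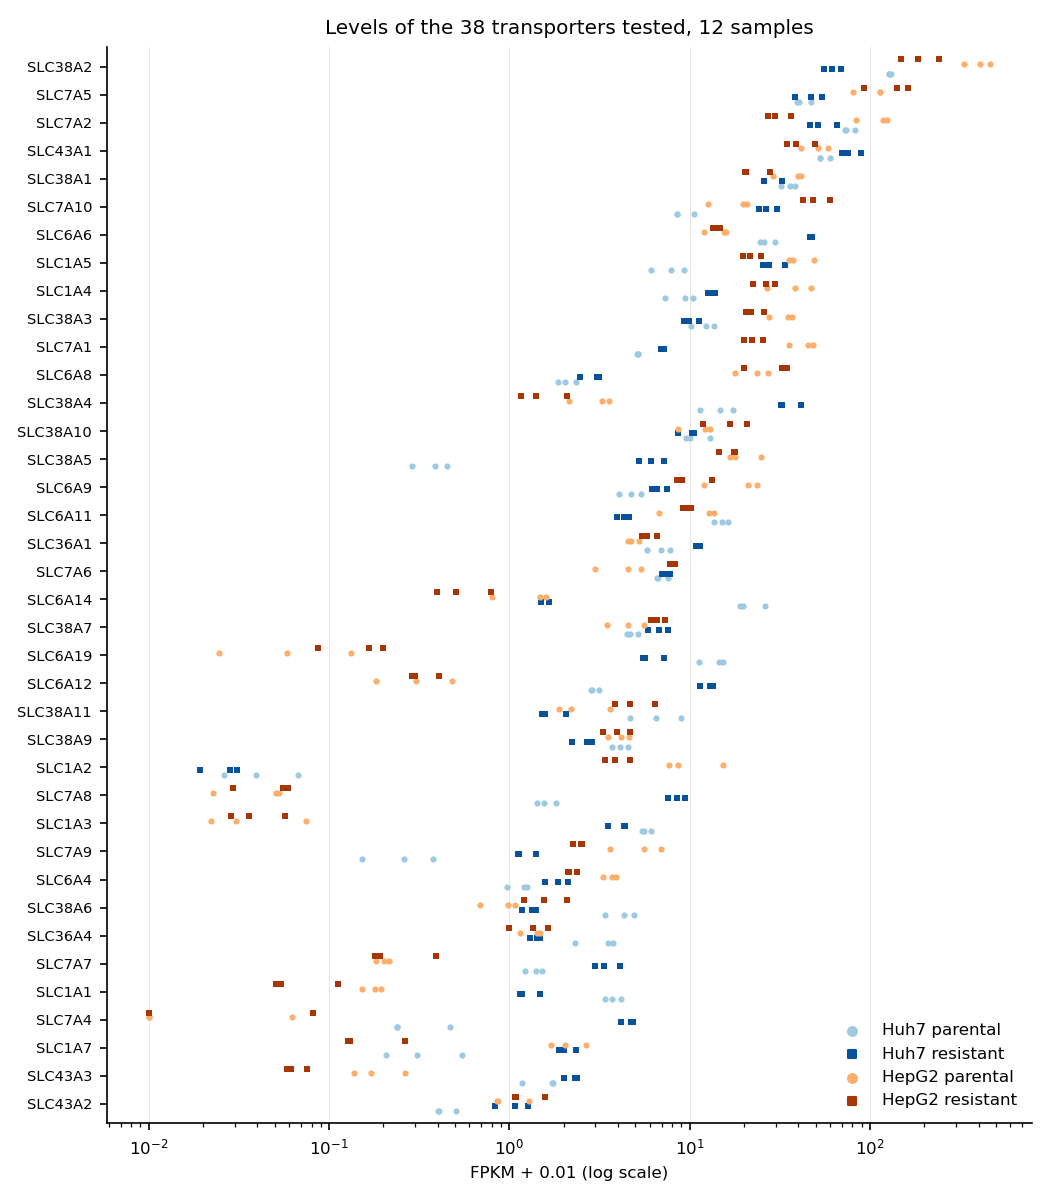
Level of each of the 38 members that passed the filter on low values, in FPKM plus 0.01 on a log axis, with 1 point per sample and the 4 groups by colour and shape (circles parental, squares resistant). SLC38A2 sits at the top in parental HepG2, up to 462.9 FPKM, and SLC1A2, SLC1A3, SLC6A19 and SLC7A8 lie far apart between the 2 lines.

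Of the 56 genes, 27 reached 1 FPKM in at least 3 samples of both lines, 9 did so in Huh7 only and 2 in HepG2 only. The remaining 18 were tested in neither line and had no sample above 1.29 FPKM. They included SLC1A6, SLC6A2, SLC6A5, SLC6A13, SLC6A15, SLC6A18, SLC6A20, SLC7A3, SLC7A14, SLC36A2 and SLC38A8, many of them known from brain, kidney or gut. Among these, 7 had at most 3 reads in every sample (SLC1A6 and SLC7A3 among them), so a change in them was not detectable at this depth. SLC6A2, the noradrenaline carrier, missed the filter narrowly, with 0.544, 1.07 and 1.29 FPKM in parental HepG2 against 0.0865, 0.14 and 0.0425 in resistant HepG2, and received no test.

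A gene was called when limma's adjusted p over all genes tested was below 0.05 and the log2 change of FPKM + 1 was beyond 1. In resistant Huh7, 8 of the 36 members tested were called higher and 7 lower, where 8.59% of all genes tested were called higher and 14% lower. Of the 8, SLC1A7, SLC7A4 and SLC38A5 reached 1 FPKM in the resistant samples only. They passed the filter through the group in which they were high, so their direction followed from it. With upper-quartile scaling the split was 9 higher and 4 lower (12.4% and 10.7% of all genes), and with a GC content trend removed it was 6 higher and 3 lower (5.62% and 5.82% of all genes). In resistant HepG2, 1 of 29 members was called higher and 4 lower, against 3.29% and 2.98% of all genes. Of the 4, SLC1A7 passed the filter through the parental samples only. At an adjusted p below 0.05 of any size, 20 members were higher and 12 lower in Huh7 (32.7% and 37.4% of all genes), and 2 were higher and 9 lower in HepG2 (11.6% and 8.43% of all genes). The 20 also hold SLC7A9, which passed the Huh7 filter through the resistant samples only. The median log2 change was 0.37 over the members and -0.04 over all genes in Huh7, and -0.22 and 0.12 in HepG2. Upper-quartile scaling moved the median of all genes to 0.10 in Huh7 and to 0.00 in HepG2, and that of the difference between the lines from -0.16 to 0.10. The addition of 1 FPKM understates the change of low genes.

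The difference between the 2 lines was tested as an interaction, the change in Huh7 minus the change in HepG2, in a fit over all 12 samples that shares its samples with the tests within each line. The change was more positive in Huh7 for 12 of 38 members and more negative for 5, where 10.6% and 18.2% of all genes were called. Upper-quartile scaling turned the split over all genes to 16.8% and 12.5%, with 16 and 4 members called, and removal of the GC trend gave 11% and 9.23%, with 12 and 4 members. Of the called members, 4 of the 12 and 2 of the 5 had passed the filter in a single line and entered the test through it. Of the 17, SLC1A5, SLC1A7, SLC7A1 and SLC7A9 had adjusted p below 0.05 within each line with opposite signs. With the GC trend removed, the Huh7 change of SLC7A1 was -0.01 (adjusted p = 0.909), so its signs were no longer opposite. SLC1A7 and SLC7A9 passed the Huh7 filter through the resistant samples only, and SLC1A7 the HepG2 filter through the parental samples only. Their signs there followed from the filter. SLC38A2 was called lower and SLC7A10 higher in both lines. With the GC trend removed, neither was called in Huh7. How many of all genes moved in opposite directions, or were called in the same direction in both lines, was not counted.

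**Figure D2:**
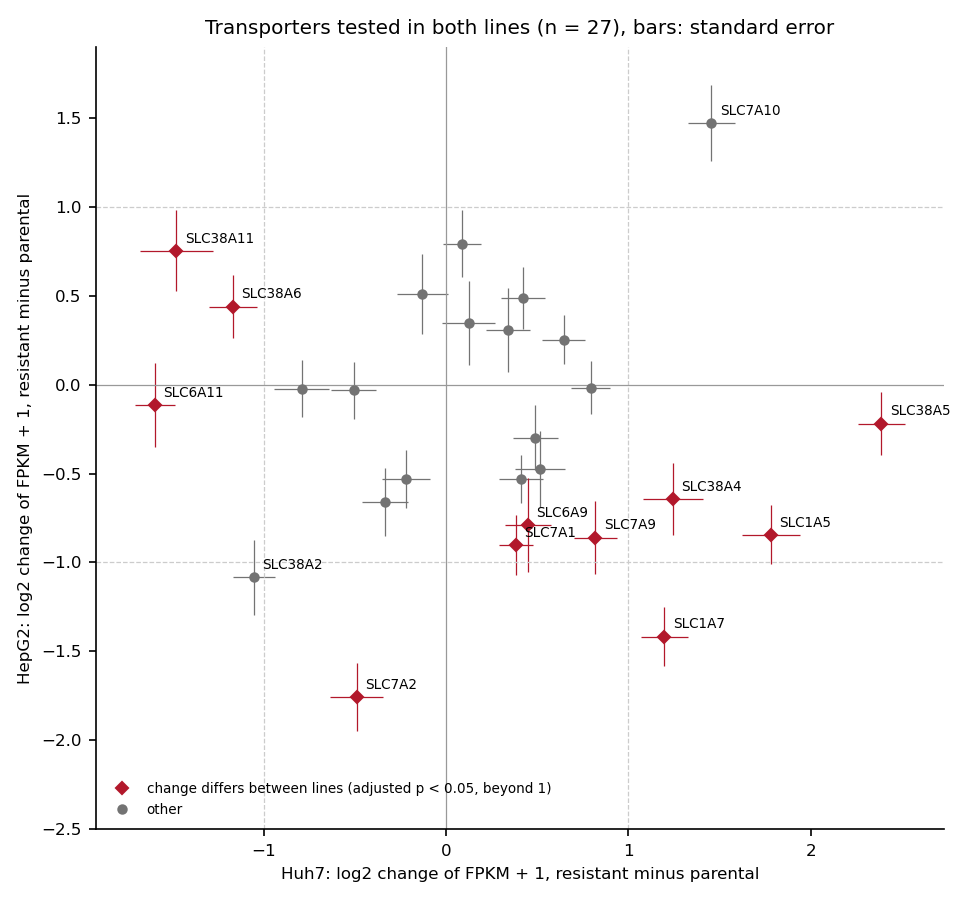
Log2 change of FPKM + 1 (resistant minus parental) in Huh7 on the horizontal axis and HepG2 on the vertical axis for the 27 members tested in both lines, with standard errors as bars. Red diamonds mark members whose change differed between the lines by the interaction test; SLC7A10 stands alone at the upper right (1.45 and 1.47) and SLC38A2 at the lower left (-1.05 and -1.08).

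Among the neutral amino acid exchangers, SLC1A5, the main glutamine exchanger ASCT2, showed the largest difference between the lines. Its FPKM was 9.27, 7.84 and 6.11 in parental Huh7 and 33.7, 25.5 and 27.5 in resistant Huh7, a 3.74-fold higher mean. In HepG2 the order was the reverse, with 35.4, 48.9 and 37.5 in parental and 19.8, 24.8 and 21.5 in resistant samples. The conditions did not overlap in either line, and moved in opposite directions. The log2 change was 1.78 (SE 0.16, adjusted p = 5.33e-05) in Huh7 and -0.85 (SE 0.17, adjusted p = 0.0109) in HepG2, the second not past the fold threshold, and they differed by 2.63 (SE 0.24, adjusted p = 9.76e-06). SLC1A4 (ASCT1), which exchanges serine, alanine and cysteine, had means of 9.05 ± 1.63 and 13.2 ± 0.623 FPKM in parental and resistant Huh7 and 37.5 ± 9.99 and 26.2 ± 3.57 in HepG2 (SD, n = 3). Its change was 0.51 in Huh7 (adjusted p = 0.00868) and -0.47 in HepG2 (adjusted p = 0.144), where the 2 conditions overlapped.

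The glutamate and aspartate carriers divided by line. SLC1A2 (EAAT2), the chief glutamate carrier of astrocytes and also known from perivenous hepatocytes, was a HepG2 gene, with 15.3, 7.63 and 8.66 FPKM in parental and 4.68, 3.37 and 3.84 in resistant cells. No Huh7 sample exceeded 0.0572 FPKM. It fell by 1.17 on the log2 scale in HepG2 (SE 0.24, adjusted p = 0.014); without HepG2 parental replicate 1, its highest sample, the value was -0.89 (adjusted p = 0.0261), and keeping all low genes in the test raised the adjusted p to 0.0541. The interaction of SLC1A2 was 1.14 (adjusted p = 0.00484), 0.86 without that replicate and 0.40 with limma-voom on reads, where the call was lost. On the FPKM + 1 scale this interaction restates the HepG2 change with the sign turned. SLC1A1 (EAAT3) and SLC1A3 (EAAT1) were Huh7 genes. SLC1A1 had 3.69, 3.39 and 4.16 FPKM in parental and 1.16, 1.47 and 1.14 in resistant Huh7, and fell by 1.07 (SE 0.12, adjusted p = 0.000113); the value was -0.83 with the GC trend removed and -0.96 with upper-quartile scaling, short of the fold threshold. SLC1A3 had a log2 change of -0.41 in Huh7 (adjusted p = 0.0118).

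SLC1A7 (EAAT5), a glutamate carrier with a large chloride conductance, moved in opposite directions in the lines. It had 0.536, 0.198 and 0.298 FPKM in parental and 1.87, 2 and 2.33 in resistant Huh7, but 2.66, 2.03 and 1.69 in parental and 0.12, 0.253 and 0.118 in resistant HepG2. The conditions did not overlap in either line. The log2 change was 1.20 in Huh7 (SE 0.13, adjusted p = 0.000107) and -1.42 in HepG2 (SE 0.17, adjusted p = 0.00134), with an interaction of 2.61 (SE 0.19, adjusted p = 2.24e-06). With the GC trend removed the Huh7 value was 0.65, below the fold threshold; with limma-voom on reads, which uses no such pseudocount, the values were 2.67, -3.71 and 6.38. The lower group of each line held 11 to 52 reads per sample.

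**Figure D3:**
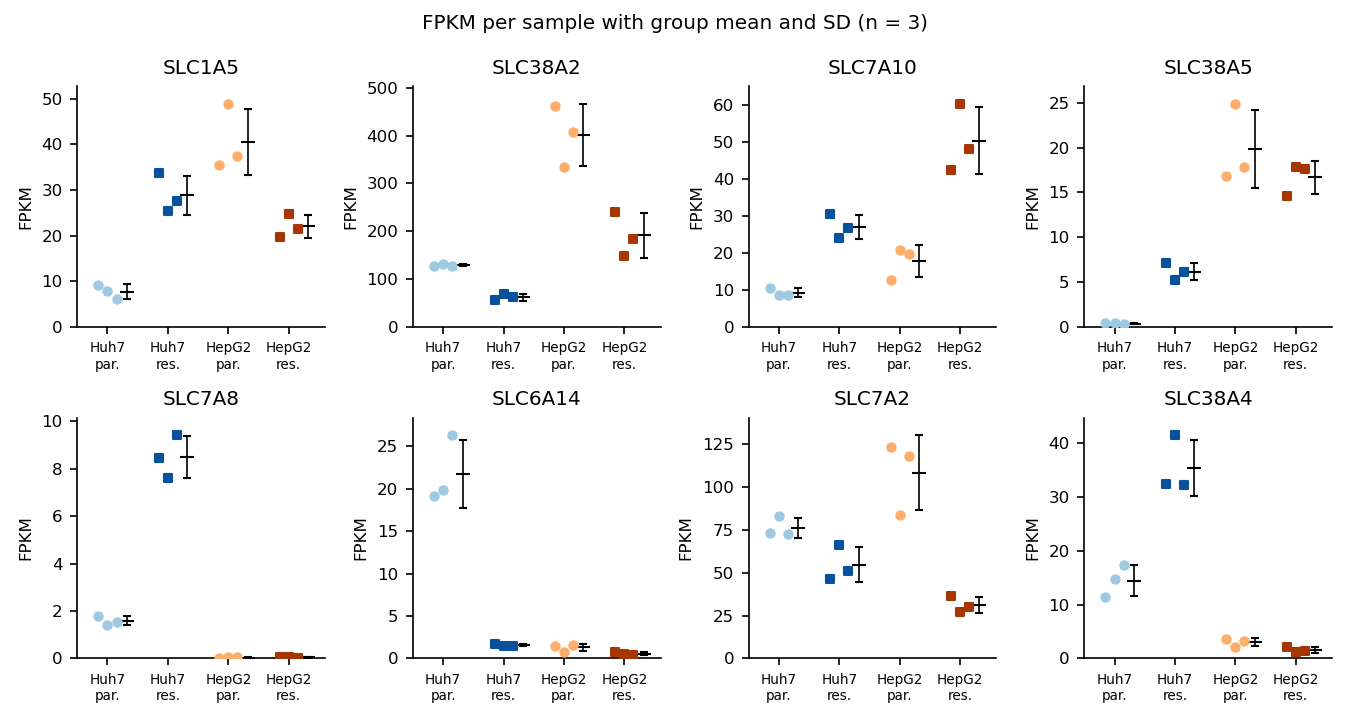
FPKM of 8 members in each of the 12 samples (points), with the group mean and SD beside them (n = 3; par., parental; res., resistant; each axis starts at 0). SLC1A5 is higher in resistant Huh7 and lower in resistant HepG2, SLC38A2 is lower and SLC7A10 higher in the resistant cells of both lines, and SLC7A8 and SLC6A14 are near 0 or low in HepG2.

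Of the SLC7A light chains, SLC7A8 (LAT2), which exchanges neutral amino acids, rose in Huh7 from 1.8, 1.42 and 1.54 to 8.45, 7.61 and 9.41 FPKM. This is a 5.35-fold higher mean and a log2 change of 1.87 (SE 0.12, adjusted p = 1.35e-05). In HepG2, SLC7A8 had 1 to 5 reads per sample. SLC7A10 (Asc-1), an exchanger of small neutral and D-amino acids, rose in both lines. Its FPKM was 10.6, 8.55 and 8.53 in parental and 30.4, 24.1 and 26.6 in resistant Huh7, and 12.7, 20.7 and 19.7 in parental and 42.5, 60.3 and 48.2 in resistant HepG2. The mean was 2.93-fold higher in Huh7 and 2.84-fold higher in HepG2, with log2 changes of 1.45 (SE 0.13, adjusted p = 5e-05) and 1.47 (SE 0.22, adjusted p = 0.00325). Their difference was -0.02 (SE 0.27, adjusted p = 0.96). With the GC trend removed, the Huh7 value was 0.93 and no longer past the fold threshold. The gene overlaps 204 bases of LRP3 on the opposite strand; whether reads were counted by strand is not given in the sources used here, and LRP3 means were 5.83 and 11.5 FPKM in Huh7 and 3.2 and 7.23 in HepG2 (parental, then resistant).

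SLC7A9 (b0,+AT), the light chain of the renal cystine carrier, had log2 changes of 0.82 in Huh7 (adjusted p = 0.000364) and, in HepG2, -0.86 (adjusted p = 0.0219), neither past the fold threshold. Both passed it with limma-voom on reads (2.27 and -1.09), and the HepG2 value did without HepG2 parental replicate 1 (-1.08). The interaction was 1.68 (SE 0.24, adjusted p = 0.000172), and 3.37 with limma-voom on reads. Its levels were low, at means of 0.253 and 1.21 FPKM in parental and resistant Huh7 and 5.36 and 2.42 in HepG2. SLC7A5 (LAT1), the leucine importer of many tumours, was the second most abundant member by mean over 12 samples but was not called in either line. It had 47.4, 39.2 and 40.2 FPKM in parental and 47.2, 38.2 and 53.9 in resistant Huh7, and 80.1, 113.8 and 113.6 in parental and 92.6, 163.3 and 141.6 in resistant HepG2. The samples of the 2 conditions overlapped in both lines, with changes of 0.12 (SE 0.15, adjusted p = 0.463) and 0.35 (SE 0.24, adjusted p = 0.327); with the GC trend removed, the Huh7 value was -0.42. The partner of these light chains, SLC3A2 (4F2hc), had means of 41.8 ± 5.43 and 65.7 ± 7.17 FPKM in parental and resistant Huh7 and 62.1 ± 12.5 and 58.2 ± 12.1 in HepG2 (SD, n = 3). Its change was 0.64 in Huh7 (adjusted p = 0.00259) and -0.09 in HepG2 (adjusted p = 0.781). SLC3A1 (rBAT), the partner of SLC7A9, stayed below 1 FPKM in all samples. All 6 light chains tested in Huh7 had a positive change, 2 of them called, where 48.2% of all genes had a positive change and 8.59% were called higher. SLC7A9, 1 of the 6, reached 1 FPKM in the resistant Huh7 samples only, so its positive sign followed from the filter. With the GC trend removed the counts no longer held, since SLC7A5 was negative and SLC7A10 was not called. SLC7A6 (y+LAT2) and SLC7A7 (y+LAT1) had a log2 change of 0.09 (adjusted p = 0.485) and 0.91 (adjusted p = 0.000346).

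Of the cationic amino acid carriers, which take up arginine and lysine, SLC7A1 and SLC7A2 could be tested in both lines, and the change of each differed between them. SLC7A2 (CAT2), the hepatic form, had 123.7, 83.5 and 118.3 FPKM in parental and 36.5, 27.1 and 29.9 in resistant HepG2, a 3.48-fold higher mean in the parental cells. It fell by 1.76 on the log2 scale (SE 0.19, adjusted p = 0.00102). In Huh7 SLC7A2 had 73.2, 83.1 and 72.7 in parental and 46.4, 66 and 51.3 in resistant cells, a change of -0.49 (adjusted p = 0.0151) that was 0.06 with the GC trend removed. The interaction was 1.27 (adjusted p = 0.00138). SLC7A1 (CAT1), the widely expressed form, was at 35.4, 48.6 and 45.5 FPKM in parental and 19.9, 25.6 and 22.2 in resistant HepG2 (-0.90, SE 0.17, adjusted p = 0.0088), which passed the fold threshold under median-ratio (-1.01) and upper-quartile scaling (-1.04) and without HepG2 parental replicate 1 (-1.04). In Huh7 it was at 5.19, 5.08 and 5.13 in parental and 6.91, 6.93 and 7.17 in resistant cells (0.38, adjusted p = 0.00625), a change that was -0.01 with the GC trend removed. The interaction of SLC7A1 was 1.29 (adjusted p = 0.000147). SLC7A4, a relative with no settled substrate, rose in Huh7 from 0.228, 0.461 and 0.228 to 4.85, 4.13 and 4.71 FPKM (2.09, SE 0.12, adjusted p = 8.77e-06; 3.93 with limma-voom on reads). In HepG2, SLC7A4 had at most 3 reads in each sample, so no fold is given there and its interaction only restates the Huh7 change.

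In the SLC38 family, SLC38A2 (SNAT2) fell in both lines. It had 127.6, 131.5 and 128.1 FPKM in parental and 55.3, 69.4 and 61.4 in resistant Huh7, and 462.9, 333.4 and 408.4 in parental and 241.3, 148.8 and 183.6 in resistant HepG2. Every resistant sample lay below every parental sample of its line, and the parental means were 2.08-fold and 2.10-fold higher. The log2 change was -1.05 in Huh7 (SE 0.11, adjusted p = 0.000113) and -1.08 in HepG2 (SE 0.21, adjusted p = 0.0105), with an interaction of 0.03 (SE 0.25, adjusted p = 0.93). Both values lay close to the fold threshold. In Huh7 the call was lost with median-ratio (-0.98) and upper-quartile scaling (-0.89), without Huh7 resistant replicate 1 (-0.97) and with the GC trend removed (-0.20, adjusted p = 0.12). In HepG2 it was lost without HepG2 resistant replicate 2 (-0.92), without HepG2 parental replicate 1 (-0.97) and when all low genes were kept in the test (adjusted p = 0.0528), while the GC-corrected value was -1.20.

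SLC38A1 (SNAT1), its neighbour on chromosome 12, was not called. It had a log2 change of -0.34 in Huh7 (SE 0.13, adjusted p = 0.0401; 0.09 with the GC trend removed) and of -0.66 in HepG2 (SE 0.19, adjusted p = 0.044), from a mean of 36.8 ± 6.82 to 22.9 ± 4.36 FPKM (SD, n = 3). SLC38A4 (SNAT4), the system A carrier of liver, had 11.4, 14.7 and 17.3 FPKM in parental and 32.5, 41.5 and 32.3 in resistant Huh7. In HepG2 its levels were 3.58, 2.12 and 3.24 in parental and 2.08, 1.15 and 1.4 in resistant cells. It rose in Huh7 by 1.24 (SE 0.17, adjusted p = 0.000266; 1.99 with the GC trend removed), and the HepG2 change was -0.64 (SE 0.20, adjusted p = 0.0582), with an interaction of 1.89 (adjusted p = 0.000224). SLC38A3 (SNAT3), the main system N glutamine carrier of liver, was not called in either line, at -0.22 in Huh7 (adjusted p = 0.159) and -0.53 in HepG2 (adjusted p = 0.0521); its Huh7 value was -0.78 with the GC trend removed (adjusted p = 0.000548).

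SLC38A5 (SNAT5), a second system N carrier, was nearly confined to HepG2 among the parental cells. Its FPKM was 0.375, 0.444 and 0.278 in parental Huh7, 7.18, 5.22 and 6.12 in resistant Huh7, 16.8, 24.9 and 17.9 in parental HepG2 and 14.6, 17.9 and 17.6 in resistant HepG2. The mean was 16.9-fold higher in resistant than in parental Huh7, with 18 to 30 reads per parental sample. The log2 change was 2.39 (SE 0.13, adjusted p = 7.19e-06), the largest rise among the members in Huh7 on this scale, and 4.06 with limma-voom on reads. The HepG2 conditions overlapped (-0.22, adjusted p = 0.404) and the interaction was 2.61 (adjusted p = 5.97e-06; 4.29 with limma-voom on reads).

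SLC38A11, a little-studied relative, had 4.66, 6.47 and 8.98 FPKM in parental and 1.56, 2.05 and 1.51 in resistant Huh7, and 1.88, 2.2 and 3.63 in parental and 6.41, 3.87 and 4.65 in resistant HepG2. It fell in Huh7 by 1.48 (SE 0.20, adjusted p = 0.000289), and the HepG2 value was 0.75 (SE 0.23, adjusted p = 0.0505), with an interaction of -2.23 (adjusted p = 0.000244). SLC38A6, another relative known mainly from brain, had means of 4.19 ± 0.764 and 1.3 ± 0.118 FPKM in parental and resistant Huh7 and 0.91 ± 0.206 and 1.6 ± 0.443 in HepG2 (SD, n = 3). Its change was -1.17 in Huh7 (adjusted p = 0.000136) and 0.44 in HepG2 (adjusted p = 0.111), with an interaction of -1.61 (adjusted p = 0.000112). With the GC trend removed, the Huh7 values were -0.79 for SLC38A11 and -0.35 for SLC38A6, and the interactions -1.46 and -0.70, so that SLC38A6 kept neither call; its interaction was -2.46 with limma-voom on reads. SLC38A7, SLC38A9, a lysosomal arginine sensor, and SLC38A10 were not called in either line, with changes between -0.51 and 0.51.

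Among the SLC6A carriers, SLC6A14 (ATB0,+), which concentrates neutral and cationic amino acids, showed the largest fall. It had 19.1, 19.8 and 26.3 FPKM in parental and 1.66, 1.48 and 1.49 in resistant Huh7, a 14.1-fold higher mean in the parental cells. The log2 change was -3.15 (SE 0.14, adjusted p = 4.19e-06), -2.20 with the GC trend removed. In HepG2 the levels of SLC6A14 were 1.47, 0.792 and 1.59 in parental and 0.784, 0.496 and 0.386 in resistant cells, below the filter, and the interaction was -2.60 (adjusted p = 9.15e-06; -1.56 with the GC trend removed). SLC6A19 (B0AT1), the neutral amino acid carrier of gut and kidney, had 15.3, 14.6 and 11.2 FPKM in parental and 7.21, 5.49 and 5.68 in resistant Huh7. It fell by 1.04 on the log2 scale (SE 0.15, adjusted p = 0.000367), or by 1.57 with the GC trend removed, and the call was lost with median-ratio (-0.98) and upper-quartile scaling (-0.89) and without Huh7 resistant replicate 2 (-0.98), Huh7 parental replicate 1 (-0.96) or Huh7 parental replicate 2 (-0.996). HepG2 samples held 1 to 17 reads of SLC6A19, and its interaction was -1.15 (adjusted p = 0.000427), -0.97 with upper-quartile scaling and -2.54 with limma-voom on reads. At these HepG2 levels the interaction is no result separate from the Huh7 change. SLC6A9 (GlyT1), the widely expressed glycine carrier, had a log2 change of 0.45 in Huh7 (adjusted p = 0.0116; -0.09 with the GC trend removed) and of -0.79 in HepG2 (adjusted p = 0.0672; -1.07 and called without HepG2 parental replicate 1), with an interaction of 1.24 (adjusted p = 0.00654) that was 0.92 with the GC trend removed.

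Of the SLC6A carriers of betaine, GABA, taurine and creatine, 4 could be tested in Huh7 and 3 in HepG2. In Huh7, 1 was called higher and 1 lower (8.59% and 14% of all genes). In HepG2 none was called (3.29% and 2.98% of all genes). SLC6A12 (BGT1), the betaine carrier, rose in Huh7 from 3.15, 2.83 and 2.86 to 13.5, 11.4 and 12.9 FPKM (1.78, SE 0.11, adjusted p = 1.13e-05). It stayed below 0.5 FPKM in HepG2, and the interaction of 1.76 (adjusted p = 7.49e-06) only restates the Huh7 change. SLC6A11 (GAT3), a GABA carrier, fell in Huh7 from 16.3, 15.2 and 13.6 to 4.61, 4.34 and 3.95 FPKM (-1.59, SE 0.11, adjusted p = 1.92e-05). In HepG2 SLC6A11 had 6.79, 12.8 and 13.7 in parental and 9.23, 9.88 and 10.2 in resistant cells, which overlapped (-0.12, adjusted p = 0.755; interaction -1.48, adjusted p = 0.00107). SLC6A6 (TauT), the taurine carrier, was at 29.8, 26 and 24.7 FPKM in parental and 47.5, 47 and 46.6 in resistant Huh7 (0.79, adjusted p = 0.000264), and showed no detectable change in HepG2 (-0.02, SE 0.15, adjusted p = 0.945). SLC6A8, the creatine carrier, had a log2 change of 0.34 in Huh7 (adjusted p = 0.0329) and 0.31 in HepG2 (adjusted p = 0.381).

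Of the SLC43A and the SLC36A carriers, 2 each could be tested in Huh7 and in HepG2, and none was called. The shares of all genes called higher and lower were 8.59% and 14% in Huh7 and 3.29% and 2.98% in HepG2. SLC43A1 (LAT3) had 60.1, 53 and 52.5 FPKM in parental and 89.2, 69.9 and 75.4 in resistant Huh7, and 41.6, 58.8 and 51.3 in parental and 34.7, 49.4 and 38.9 in resistant HepG2. The change was 0.49 in Huh7 (SE 0.12, adjusted p = 0.00743; -0.06 with the GC trend removed) and -0.30 in HepG2 (SE 0.19, adjusted p = 0.282), with an interaction of 0.79 (adjusted p = 0.0115) below the fold threshold. SLC36A1, which carries small amino acids with protons across lysosomal and other membranes, had a log2 change of 0.65 in Huh7 (adjusted p = 0.00134) and 0.25 in HepG2. For SLC36A4 the values were -0.79 in Huh7 (adjusted p = 0.00162) and -0.02 in HepG2.

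The change in Huh7 ran with the GC content of a gene's exons. Spearman's rho between log2 change and GC content was 0.63 over all 12552 genes with a GC value and 0.56 over the 36 members, and 0.03 and 0.19 in HepG2, over 11760 genes and 29 members; these are correlations across genes, which are not independent and share the same libraries. The 8 members called higher in Huh7 had a median GC content of 58.2% (40.1% to 62.1%) and the 7 called lower a median of 40.7% (37.5% to 56.9%). When a smooth trend with GC content was taken from each sample, 6 members were called higher and 3 lower in Huh7. SLC1A5, SLC6A12, SLC7A4, SLC7A8, SLC38A4 and SLC38A5 were still called higher and SLC6A11, SLC6A14 and SLC6A19 lower, whereas SLC1A1, SLC1A7, SLC7A10, SLC38A2, SLC38A6 and SLC38A11 were not called. Whether the trend arose in library preparation or in the cells was not tested.

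**Figure D4:**
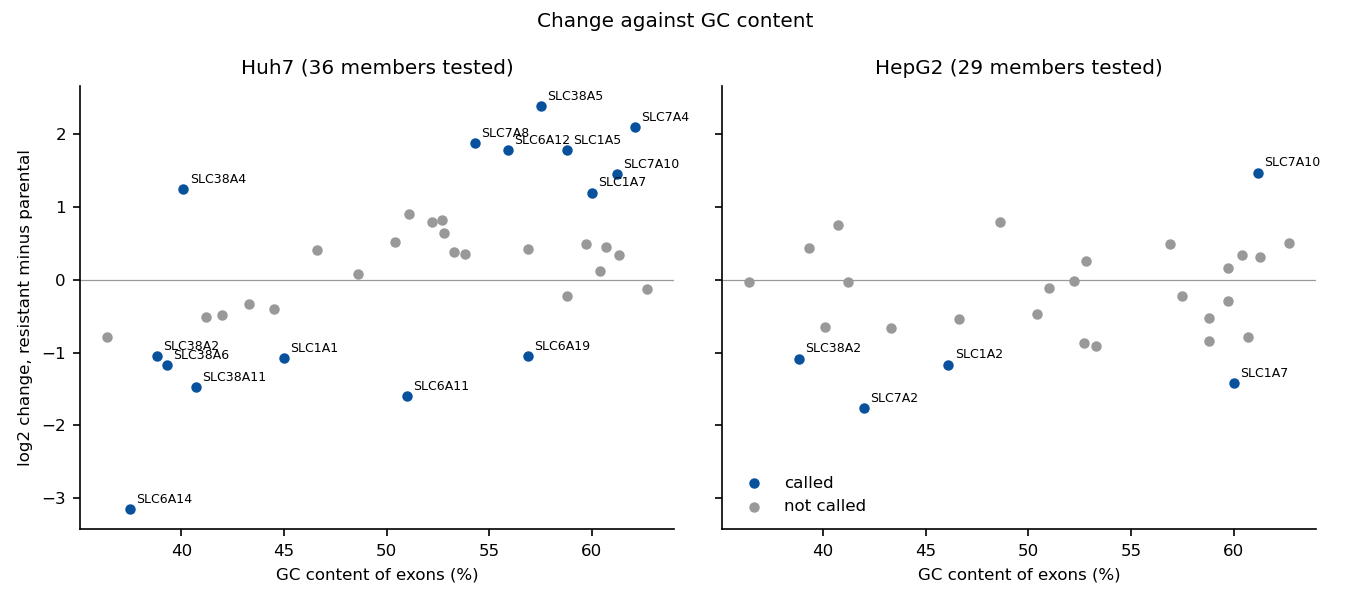
Log2 change of FPKM + 1 (resistant minus parental) against the GC content of exons in percent, for the members tested in Huh7 (left, 36) and HepG2 (right, 29), with called members in blue. In Huh7, 7 of the 8 called higher lie above 50% GC and SLC38A4 lies at 40.1%.

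Between the parental lines, 10 of 38 members were called higher in Huh7 and 13 higher in HepG2, where 18.3% and 11.9% of all genes were called. The shares of all genes were 14.5% and 15.3% with upper-quartile scaling (9 and 14 members) and 12.9% and 13.9% with the GC trend removed (9 and 13 members). This comparison shares the parental samples with the tests above. Among members with a mean of at least 10 FPKM in 1 of the lines, SLC6A14, SLC6A19 and SLC38A4 were higher in Huh7. SLC6A19 had means of 13.7 FPKM in Huh7 and 0.062 in HepG2 (log2 difference 3.79, SE 0.13, adjusted p = 5.64e-10), SLC6A14 differed by 3.32 and SLC38A4 by 1.96. The other 10 were higher in HepG2. They were SLC38A5 (-3.92), SLC1A2 (-3.42), SLC6A8 (-2.95), SLC7A1 (-2.84), SLC1A5 (-2.25), SLC1A4 (-1.91), SLC6A9 (-1.76), SLC38A2 (-1.62), SLC38A3 (-1.39) and SLC7A5 (-1.24), each given as the log2 difference Huh7 minus HepG2. In FPKM, SLC7A1 was 8.42-fold, SLC1A5 5.25-fold and SLC38A2 3.11-fold higher in HepG2, and no parental sample of one line overlapped the other for these 3.

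Some members lie close together in the genome (GRCh38, GENCODE release 29). SLC38A1 (46183063 to 46270017), SLC38A2 (46358189 to 46372867) and SLC38A4 (46764761 to 46832408) follow one another on the minus strand of chromosome 12, and in Huh7 the first had a log2 change of -0.34, the second -1.05 and the third 1.24. SLC7A9 (32830509 to 32869766) and SLC7A10 (33208664 to 33225850) lie 338897 bases apart on the minus strand of chromosome 19, and in HepG2 the first had a log2 change of -0.86 and the second 1.47. SLC7A7 and SLC7A8, 295474 bases apart on chromosome 14, had a log2 change of 0.91 and 1.87 in Huh7. SLC6A19 and SLC6A18, both carriers of gut or kidney, are 237 bases apart on chromosome 5, and only SLC6A19 passed the filter. Several members overlap a gene on the opposite strand, whose reads may not be separable from theirs. SPATA6L, which overlaps SLC1A1 by 34084 bases, had means of 1.06 and 0.453 FPKM in parental and resistant Huh7. CCDC24 overlaps SLC6A9 by 5029 bases, at 1.17 to 2.16 FPKM. TRMT5 overlaps SLC38A6 by 245 bases and had means of 5.45 and 2.55 FPKM in parental and resistant Huh7.

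The genes around the carriers were read from lists of ATF4 and its targets, amino acid sensing at mTORC1 and carriers of other families. The ATF4 list also holds EIF2AK3 and EIF2AK4, kinases upstream of ATF4 and not its targets. SESN2 is in both the ATF4 and the mTORC1 list. Of 26 genes in the ATF4 list, 22 could be tested in Huh7, with 2 called higher (9.09%, against 8.59% of all genes) and none lower (14% of all genes), at a median of 0.25 against -0.04 over all genes. At an adjusted p below 0.05 of any size, 9 were higher and 4 lower (32.7% and 37.4% of all genes). In HepG2, 23 could be tested, with none called higher and 6 lower (26.1%, against 2.98% of all genes), at a median of -0.72 against 0.12 over all genes. At an adjusted p below 0.05 of any size, 4 were higher and 13 lower (11.6% and 8.43% of all genes). The 4 included the kinases EIF2AK3 (0.89) and EIF2AK4 (0.83). ATF4 itself had 171.7, 171.6 and 143.1 FPKM in parental and 189, 190.2 and 212.6 in resistant Huh7 (0.28, adjusted p = 0.0671). In HepG2 ATF4 had 371.1, 427 and 361.4 in parental and 238.1, 254.8 and 245.6 in resistant cells (-0.65, SE 0.14, adjusted p = 0.0154), and the interaction was 0.93 (adjusted p = 0.000592), below the fold threshold. ASNS, asparagine synthetase, was low, at 2.91 ± 1.03 FPKM in parental and 1.24 ± 0.213 in resistant HepG2 (SD, n = 3; -0.78, adjusted p = 0.03) and below the filter in Huh7.

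TRIB3, a feedback inhibitor of ATF4, had a log2 change of 1.00 in Huh7 (adjusted p = 0.00073), just past the threshold, and of -1.30 in HepG2 (adjusted p = 0.00881). CTH, the cystathionine gamma-lyase of cysteine synthesis, fell in HepG2 from 37.3, 45.2 and 45.4 to 5.94, 6.73 and 5.56 FPKM (-2.62, SE 0.14, adjusted p = 6.34e-05) and had a log2 change of 0.67 in Huh7 (adjusted p = 0.0016). PCK2, the mitochondrial PEP carboxykinase, fell by 1.35 in HepG2 (adjusted p = 0.00287) and had a log2 change of 0.72 in Huh7, and STC2, a secreted stress-response glycoprotein, rose by 1.49 in Huh7 (adjusted p = 4.88e-05) and had a log2 change of -0.72 in HepG2. Of the 5 members with TGATGNAA in a window, SLC1A5, SLC7A1 and SLC38A1 had a negative change in HepG2 at an adjusted p below 0.05, SLC1A4 had -0.47 (adjusted p = 0.144), and SLC1A3 was below the filter there. At that cut, 9 of the 29 members tested and 8.43% of all genes were lower in HepG2. When 1 sample was left out, the adjusted p reached 0.163 for SLC38A1, 0.0549 for SLC1A5 and 0.0437 for SLC7A1. In Huh7 the same 5 gave 1.78 (SLC1A5), 0.38 (SLC7A1), -0.34 (SLC38A1), 0.51 (SLC1A4) and -0.41 (SLC1A3). With the GC trend removed, the Huh7 values were 1.23 (SLC1A5), -0.01 (SLC7A1), 0.09 (SLC38A1) and 0.29 (SLC1A4). Whether ATF4 acts on these genes was not tested.

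Among 19 carriers of other families, 13 could be tested in each line, with 2 called higher and 1 lower in Huh7 (15.4% and 7.69%, against 8.59% and 14% of all genes) and 1 higher and none lower in HepG2 (3.29% and 2.98% of all genes). SLC16A10 (TAT1), a carrier of aromatic amino acids, had 8.88, 8.76 and 8.34 FPKM in parental and 2.96, 3.56 and 2.87 in resistant Huh7, and 0.691, 0.963 and 0.911 in parental and 4.53, 3.77 and 3.97 in resistant HepG2. The conditions did not overlap in either line, and the changes were -1.23 (adjusted p = 4.88e-05) and 1.46 (adjusted p = 0.000735). SLC25A18, a mitochondrial glutamate carrier, rose by 1.55 in Huh7 (adjusted p = 3.75e-05). Of 31 genes of mTORC1 amino acid sensing, 28 could be tested in Huh7. There 1 was called higher and 3 lower (3.57% and 10.7%, against 8.59% and 14% of all genes). In HepG2, 26 could be tested, with none called in either direction (3.29% and 2.98% of all genes). At an adjusted p below 0.05 of any size, 1 was lower there (8.43% of all genes). FNIP2, a partner of folliculin, had the largest of these changes, -1.83 in Huh7 (adjusted p = 1.3e-05).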

How the data were processed

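RNA of 12 samples (2 lines, resistant or parental, 3 each) was analysed, with groups taken from the sample labels. The labels name the NEBNext Ultra library kit, GRCh38 and bcl2fastq; RNA extraction is described differently in the labels and in the methods, and the aligner and counter are not given in the sources used here. The authors deposited 1 table per sample, without a stated unit, and the values behave as FPKM. The value of 1 read was estimated from 6896 single-exon genes of GENCODE release 29. After multiplication by exon length, 96.4% of values up to 2000 reads fell within 0.05 of a whole read, over the 27234 Ensembl genes in that release. RPKM and FPKM cannot be told apart. The deposited FPKM were not rescaled. The recovered depth was 12290105 to 19285896 reads, and its precision covers counting error only.

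Log2(FPKM + 1) values were tested with limma 3.58.1 in R 4.3.3 (eBayes with trend), over genes that reached 1 FPKM in 3 or more samples of the fit, with Benjamini-Hochberg adjustment over all of them (12554 genes in Huh7, 11762 in HepG2, 13800 in the fits over 12 samples). A gene was called at an adjusted p below 0.05 and a log2 change beyond 1. Levels are mean ± SD. Where every sample of a group had at most 3 reads, no fold was given. Named were members called in a line or by the interaction, members called between parental lines at 10 FPKM or more, and the 10 highest by mean; SLC1A3, SLC6A2, SLC7A6, SLC7A7, SLC36A1, SLC36A4, TRIB3, the markers of other cell types and the overlapping genes were named after their values were seen. Members, roles and gene lists were chosen with earlier results of these data known. Alternatives were another pseudocount, other filters and scalings, limma without trend, limma-voom on recovered reads, a replicate block, removal of a lowess GC trend, 1 fit over all 12 samples and leaving out each sample. The procedure was tested on simulated data. Some genes are not reported here by name. Antisense and pseudogene symbols and 71462 NONCODE genes were not analysed here. Figures and tables were made with Python 3.11.15.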

Additional observations from a re-analysis of the deposited data

Results flagged for a closer look

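For 17 members the change with resistance differed between the lines by the interaction test, in a design with 3 samples per group. The difference is the log2 change of FPKM + 1 in Huh7 minus that in HepG2. It was positive for 12 members: SLC1A5 at 2.63, SLC1A7 at 2.61, SLC38A5 at 2.61, SLC7A4 at 2.09, SLC38A4 at 1.89, SLC7A8 at 1.87, SLC6A12 at 1.76, SLC7A9 at 1.68, SLC7A1 at 1.29, SLC7A2 at 1.27, SLC6A9 at 1.24 and SLC1A2 at 1.14. It was negative for 5 members: SLC6A19 at -1.15, SLC6A11 at -1.48, SLC38A6 at -1.61, SLC38A11 at -2.23 and SLC6A14 at -2.60. For SLC6A12, SLC6A14, SLC6A19, SLC7A4 and SLC7A8 the HepG2 samples were below the filter on low values, and for SLC1A2 the Huh7 samples were. These 6 entered the test through the line in which they are high. For SLC6A12, SLC7A4 and SLC7A8, at 0.5 FPKM or less in HepG2, the value restates the Huh7 change and is no separate result. For SLC6A19, at 0.19 FPKM or less in HepG2, the value lies near its Huh7 change of -1.045 and is no separate result either. For SLC1A2, at 0.0572 FPKM or less in Huh7, it restates the HepG2 change of -1.166 with the sign turned.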

How the results depend on the processing

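Each count and each named change was recomputed under the alternatives listed under the methods. The count of members called higher in Huh7 (8) was 5 to 8 when 1 sample was left out; without any 1 of the resistant samples it was 5, because SLC1A7, SLC7A4 and SLC38A5 then had fewer than 3 samples at 1 FPKM. The count called lower in Huh7 (7) was 4 with upper-quartile scaling, 3 with the GC trend removed and 3 with the replicate block and GC trend removed. The count called lower in HepG2 (4) was 2 with no filter on low values, and 3 to 4 when 1 sample was left out, but the members behind it changed. Without HepG2 parental replicate 1, SLC1A2 (-0.887) and SLC38A2 (-0.973) were not called. In that fit SLC6A9 (-1.068), SLC7A1 (-1.036) and SLC7A9 (-1.076) were called instead. Without any 1 of the parental HepG2 samples, SLC1A7 had fewer than 3 samples at 1 FPKM in HepG2 and was not tested. All other counts stayed within 1.5 times. With the GC trend removed, 6 changes in Huh7 turned direction, none of them called: SLC6A9 to -0.085, SLC7A1 to -0.011, SLC7A2 to 0.056, SLC7A5 to -0.417, SLC38A1 to 0.086 and SLC43A1 to -0.061, with the same values under the block; the cause was not tested. Leaving out 1 sample turned 2 uncalled changes in HepG2: SLC6A6 ranged from -0.137 to 0.051 and SLC6A11 from -0.407 to 0.051. The replicate numbers did not pair the samples: the correlations of deviations between same-numbered samples were 0.08, 0.06 and -0.23 in Huh7 and 0.25, 0.44 and -0.01 in HepG2. A replicate block left 8 and 7 members called in Huh7 and 1 and 4 in HepG2, and changed no call of a named member. Depth limits the members with few reads, which are not stated beside each. In parental Huh7, SLC7A9 had 6 to 17 reads per sample and SLC7A4 had 9 to 19. SLC1A2 had 4 to 22 reads in Huh7 samples, and SLC6A12 had 12 to 39 in HepG2 samples.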
